A study of Mus musculus with 8 samples.

Results

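The mRNA levels of 9 ligand-sensing transcription factors of the liver were followed: the xenobiotic sensors *Nr1i2* (PXR), *Nr1i3* (CAR) and *Ahr*, the retinoid X receptors *Rxra* and *Rxrb*, and the hormone and sterol receptors *Nr3c1* (the glucocorticoid receptor, GR), *Thrb* (thyroid hormone receptor β), *Esr1* (estrogen receptor α) and *Rora* (RORα). They were picked by gene symbol and are 9 of the 56748 genes in a count table of mouse primary hepatocytes. The study asked how the stiffness of the substrate acts on hepatocytes and whether YAP and TAZ, transcriptional coactivators that respond to mechanical cues, carry that signal. All mice were C57BL/6J Yap fl/fl;Taz fl/fl animals of 7 to 8 weeks. The Yap/Taz HepKO (KO) mice received AAV8-TBG-Cre and the control mice, called wild type (WT) here although they carry the same floxed alleles, received AAV8-TBG-Null. The TBG promoter drives Cre in hepatocytes, so other liver cells keep both genes. Hepatocytes were isolated 10 days later and kept for 24 h on collagen-coated hydrogels of 1 kPa (soft) or 20 kPa (stiff), and each of the 4 groups holds 2 libraries. The design text calls the mice female and the growth protocol male with an age of 8 weeks, and nothing states whether the 2 libraries of a group came from separate animals, so p-values measure the spread between these libraries only. The study's methods call the mice male, with an age of 7 to 8 weeks when the virus was given. They add that the floxed line also carried a ROSA26-LSL-tdTomato reporter.

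Nuclear receptors are transcription factors whose activity is set by small lipophilic ligands. PXR and CAR sense drugs, bile acids and other foreign compounds and switch on enzymes and transporters that clear them. RXRs are the shared partners that PXR, CAR, thyroid hormone receptors and the LXR, FXR and PPAR receptors need to bind DNA. GR and estrogen receptor α bind DNA mostly as homodimers, and RORα mostly as a monomer. AHR is a ligand sensor of another family, the bHLH factors: it waits in the cytoplasm with HSP90 and pairs with ARNT in the nucleus. Because these proteins are controlled by ligand, location and partners, their mRNA level is only one of the quantities that set their activity, and only mRNA was measured here.

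Library totals were between 18324083 and 26442310 counts. A level is given as CPM, the count relative to the library total in the usual CPM unit, with totals scaled by TMM (a factor that aligns libraries on the bulk of genes), and a count of 0 allows up to 3 counts, or 0.113 to 0.164 CPM, for counting error only. Of all genes, 14279 passed the filter on low counts and were tested with edgeR's quasi-likelihood test, all 9 receptors among them. A gene counted as called when its p, adjusted by Benjamini-Hochberg, was under 0.05 and its log2 fold change was beyond 0.5 in either direction. The targeted genes followed the labels: *Yap1* had 1720 to 2913 counts in the WT libraries and 606 to 747 in the KO libraries, and *Wwtr1*, which encodes TAZ, 748 to 1325 and 277 to 410. The summed CPM of 9 hepatocyte markers was 89683 to 94066 in WT and 62310 to 62911 in KO libraries, most of it *Alb*. Without *Alb*, the other 8 markers summed to 8065 and 8186 in WT soft, 6764 and 6705 in WT stiff and 7604 to 7810 in KO libraries. On stiff, KO against WT called 3 of the 9 higher (*Hnf4a*, *Tat* and *Asgr1*) and 2 lower (*Alb* and *Cps1*). Over all tested genes, 13.7% were called higher and 15.0% lower. Markers of other liver cells were also present: the sum over 8 endothelial markers was 77.0 and 82.0 CPM on WT soft, 52.7 and 52.9 on WT stiff and 99.0 to 111.8 in KO libraries. In such bulk libraries fewer cells of a type and less RNA per cell cannot be told apart.

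Stretches ahead of 3 receptor starts are shown as examples of the letters searched: *Rxrb* because it is one of the receptors called below, *Esr1* for letters tied to YAP and TAZ, and *Rora* for letters tied to AHR. The mouse RefSeq promoter table (GRCm38.p6, 250 bases before to 50 after each start) held 11 starts of 7 of the receptors. Letters were searched on both strands, and the printed stretches hold no annotated exon. The *Rxrb* stretch, chr17:34031683-34031811 on the plus strand, is the whole gap of 129 bases between *Slc39a7*, which runs the other way, and *Rxrb*, with the GC box letters GGGCGG in capitals. The *Esr1* stretch, chr10:4709957-4709998 on the plus strand, lies ahead of the second of its 2 listed starts and has the TEAD letters GGAATG in capitals, TEAD factors being the DNA-binding partners of YAP and TAZ. The *Rora* stretch, chr9:68653601-68653641 on the plus strand, has the AHR core letters CACGC in capitals.
Rxrb: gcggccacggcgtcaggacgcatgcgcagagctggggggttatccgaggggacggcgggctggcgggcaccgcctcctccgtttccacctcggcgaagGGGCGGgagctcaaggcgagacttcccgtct
Esr1: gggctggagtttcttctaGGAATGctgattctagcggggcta
Rora: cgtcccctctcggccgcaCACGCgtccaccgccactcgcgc
TEAD letters (CATTCC or GGAATG) occurred at 2 of the 11 receptor starts, 1 each of *Esr1* and *Thrb*, against 14.7% of all 32851 promoters. AHR core letters (GCGTG or CACGC) occurred at 5 of 11, against 32.4% of all, and GC box letters (GGGCGG or CCGCCC) at 4 of 11, against 35.7%. These are letter matches and say nothing of binding.

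Per kb of gene model, which allows levels to be compared between genes, the 9 receptors spanned more than 2 orders of magnitude. *Rxra* had the highest mean level over the 8 libraries, 20.8 CPM per kb (range 18.6 to 21.9), followed by *Rxrb* at 15.8 (11.3 to 18.7) and *Nr3c1* at 9.39 (8.58 to 9.98). *Rora* at 2.91 (2.67 to 3.38), *Ahr* at 2.89 (2.26 to 3.76) and *Nr1i2* at 2.86 (2.36 to 3.47) came next. Their ranges overlapped so far that no order among these 3 can be read, and *Thrb* at 2.19 (1.79 to 2.51) overlapped the ranges of *Ahr* and *Nr1i2*. *Esr1* stood at 0.718 (0.647 to 0.855) and *Nr1i3* at 0.105 (0.0503 to 0.166), each apart from its neighbors in every library. The ranges of *Rxra* and *Rxrb* touched only across libraries, and within each library *Rxra* was the higher of the pair. The shared partners were thus the most abundant transcripts and CAR the least.

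**Figure D1:**
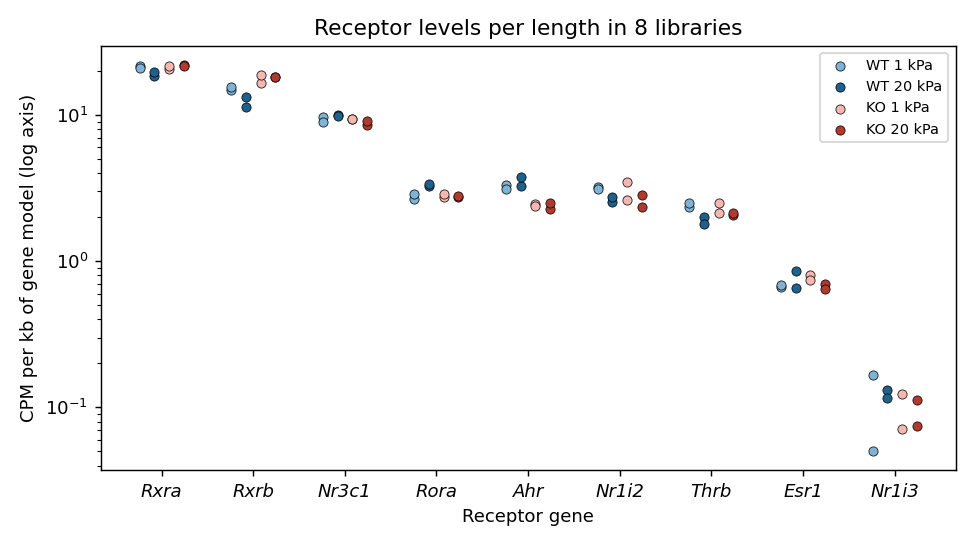
Level of each receptor in CPM per kb of gene model (log axis) in the 8 libraries, colored by genotype and stiffness; receptors are ordered by their mean. Rxra and Rxrb lie near 20 and 16, Nr1i3 near 0.1, and Rora, Ahr and Nr1i2 share a range.

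Substrate stiffness called none of the 9 receptors in WT hepatocytes, where 19.3% of all tested genes were called (10.0% higher and 9.26% lower on stiff). In KO hepatocytes it also called none, against 0.0210% of all genes. The difference of the stiffness effect between the genotypes called none, against 16.8%, and KO against WT on the soft hydrogel none, against 6.67%. KO against WT on the stiff hydrogel called 2, *Rxrb* higher and *Ahr* lower, against 28.7% of all genes (13.7% higher and 15.0% lower). With the adjusted p alone and no demand on the fold, 4 receptors passed for stiffness in WT (41.0% of all genes), 0 in KO (0.0210%), 2 for the difference of the effects (29.4%), 2 for genotype on soft (18.4%) and 5 for genotype on stiff (51.1%). At an unadjusted p under 0.05, edgeR gave 4, 0, 4, 2 and 5 receptors in these comparisons, beside 48%, 7.54%, 39%, 29.6% and 56.1% of all tested genes. DESeq2, at the calling thresholds, called as many receptors as edgeR in each comparison. The comparisons share libraries: the 2 WT stiff libraries enter the stiffness effect in WT, the difference of the effects and the genotype effect on stiff.

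The 95% interval of the log2 fold change lay wholly within ±0.5 for 6 of 9 receptors in WT stiff against soft (44.7% of all tested genes), 6 in KO (65.4%), 4 for the difference of the effects (35%), 7 for genotype on soft (56.5%) and 6 for genotype on stiff (38.8%). Taken without sign, the receptors' log2 fold changes had a median of 0.16 in WT stiff against soft, beside 0.27 over all tested genes. It was 0.050 beside 0.092 in KO, 0.19 beside 0.29 for the difference, 0.079 beside 0.16 for genotype on soft and 0.18 beside 0.34 for genotype on stiff.

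**Figure D2:**
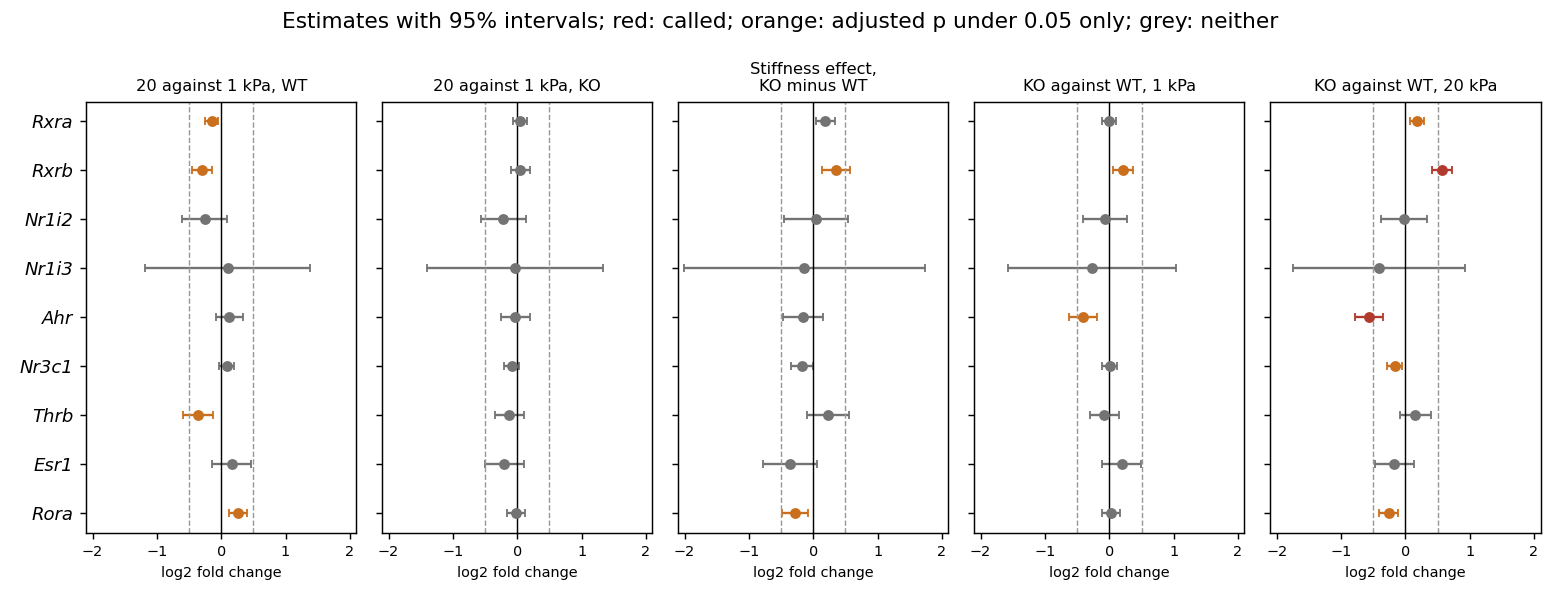
Log2 fold change (x axis) of each receptor with its 95% interval in the 5 comparisons; dashed lines mark ±0.5, red marks called genes, orange an adjusted p under 0.05 only. In KO stiff against soft all 9 points are grey, and in KO against WT on stiff Rxrb at 0.57 and Ahr at -0.56 are red.

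The RXRs are described first. *Rxrb* (ENSMUSG00000039656, chr17:34250786-34257373 as deposited, plus strand) measured 58.7 and 61.5 CPM in WT soft, 52.5 and 44.9 in WT stiff, 65.4 and 74.3 in KO soft, and 72.5 and 71.8 in KO stiff. Both WT stiff libraries lay below every other library, and all 4 KO libraries lay above all 4 WT libraries. On the stiff hydrogel *Rxrb* was 1.48-fold higher in KO than in WT (log2 0.57, SE 0.075, 95% interval 0.41 to 0.72, adjusted p = 4.34e-06). The call rests on 1 library: without WT stiff replicate 2 the log2 difference was 0.45 (adjusted p = 0.000355), under the fold threshold. On soft the difference was 0.22 (SE 0.073, adjusted p = 0.0473), and 0.12 (adjusted p = 0.425) without KO soft replicate 2. Stiff against soft gave -0.30 in WT (SE 0.075, adjusted p = 0.00357) and 0.050 in KO (SE 0.072, adjusted p = 0.894). The WT value was -0.19 without WT stiff replicate 2 and -0.41 without WT stiff replicate 1. The difference of the WT and KO effects, 0.35 (SE 0.10, adjusted p = 0.0165), passed the adjusted p and missed the fold threshold. It was 0.24 without WT stiff replicate 2 and 0.26 without KO soft replicate 1.

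*Rxra* (ENSMUSG00000015846, chr2:27566452-27652969 as deposited, plus strand) measured 135.5 and 132.0 CPM in WT soft, 117.1 and 124.6 in WT stiff, 131.1 and 135.4 in KO soft, and 138.0 and 135.9 in KO stiff. The 2 WT stiff libraries were the lowest of the 8, and the other 6 lay within 131.1 to 138.0. The pattern is that of *Rxrb* on WT stiff, without the higher level in KO on soft. Stiff against soft was -0.15 in WT (SE 0.050, adjusted p = 0.0246, and 0.282 without WT stiff replicate 1) and 0.040 in KO (SE 0.049, adjusted p = 0.869). KO against WT was -0.0065 on soft (95% interval -0.11 to 0.097) and 0.18 on stiff (SE 0.050, adjusted p = 0.00552, and 0.135 without WT stiff replicate 1). The difference of the stiffness effects was 0.19 (SE 0.070, adjusted p = 0.0533). The third RXR gene, *Rxrg*, had 41 to 100 counts per library, and its stiff against soft estimate in WT was 0.55 (SE 0.25, adjusted p = 0.0925).

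The xenobiotic sensors come next. *Nr1i2* (ENSMUSG00000022809, chr16:38068685-38115186 as deposited, minus strand) measured 8.17 and 8.00 CPM in WT soft, 6.51 and 7.01 in WT stiff, 6.67 and 8.85 in KO soft, and 7.26 and 6.03 in KO stiff. The libraries of the 4 groups interleaved, apart from WT soft lying above WT stiff and above KO stiff. Stiff against soft was -0.26 in WT (95% interval -0.61 to 0.092, adjusted p = 0.236) and -0.21 in KO (-0.56 to 0.14, adjusted p = 0.778), a difference of effects of 0.045 (-0.45 to 0.54, adjusted p = 0.914). The receptor had 122 to 212 counts per library, and both stiffness intervals reached beyond -0.5.

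*Nr1i3* (ENSMUSG00000005677, chr1:171041539-171048270 as deposited, plus strand) had only 19 and 4 counts in WT soft, 12 and 10 in WT stiff, 8 and 11 in KO soft, and 7 and 10 in KO stiff. The WT soft pair spanned the whole range of the other 6 libraries. The 95% interval of stiff against soft in WT ran from -1.18 to 1.38, so these counts do not exclude a change of either sign within it. Its reads are uncertain besides: 53.5% of the 64-base windows of its longest transcript occur in *Tomm40l*, a gene on the opposite strand with a mean of 182 counts. The other 8 receptors shared at most 1.17% of such windows.

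*Ahr* (ENSMUSG00000019256, chr12:35547973-35585037 as deposited, minus strand) measured 20.3 and 19.3 CPM in WT soft, 20.2 and 23.2 in WT stiff, 15.3 and 14.7 in KO soft, and 14.0 and 15.4 in KO stiff. All 4 KO libraries lay below all 4 WT libraries, while soft and stiff overlapped within each genotype. On stiff the KO level was 0.677 of the WT level (log2 -0.56, SE 0.10, 95% interval -0.78 to -0.34, adjusted p = 0.000199). The log2 difference was -0.47 without WT stiff replicate 2 (adjusted p = 0.00584) and -0.50 without KO stiff replicate 1 (adjusted p = 0.0036), both under the fold threshold. On soft it was -0.41 (SE 0.10, adjusted p = 0.00951, and 0.0688 without KO soft replicate 2). Stiff against soft was 0.13 in WT (95% interval -0.086 to 0.34, adjusted p = 0.346) and -0.029 in KO (-0.25 to 0.20, adjusted p = 0.966). The difference of the effects was -0.16 (adjusted p = 0.473), so the genotype gap of *Ahr* was not shown to depend on stiffness.

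**Figure D3:**
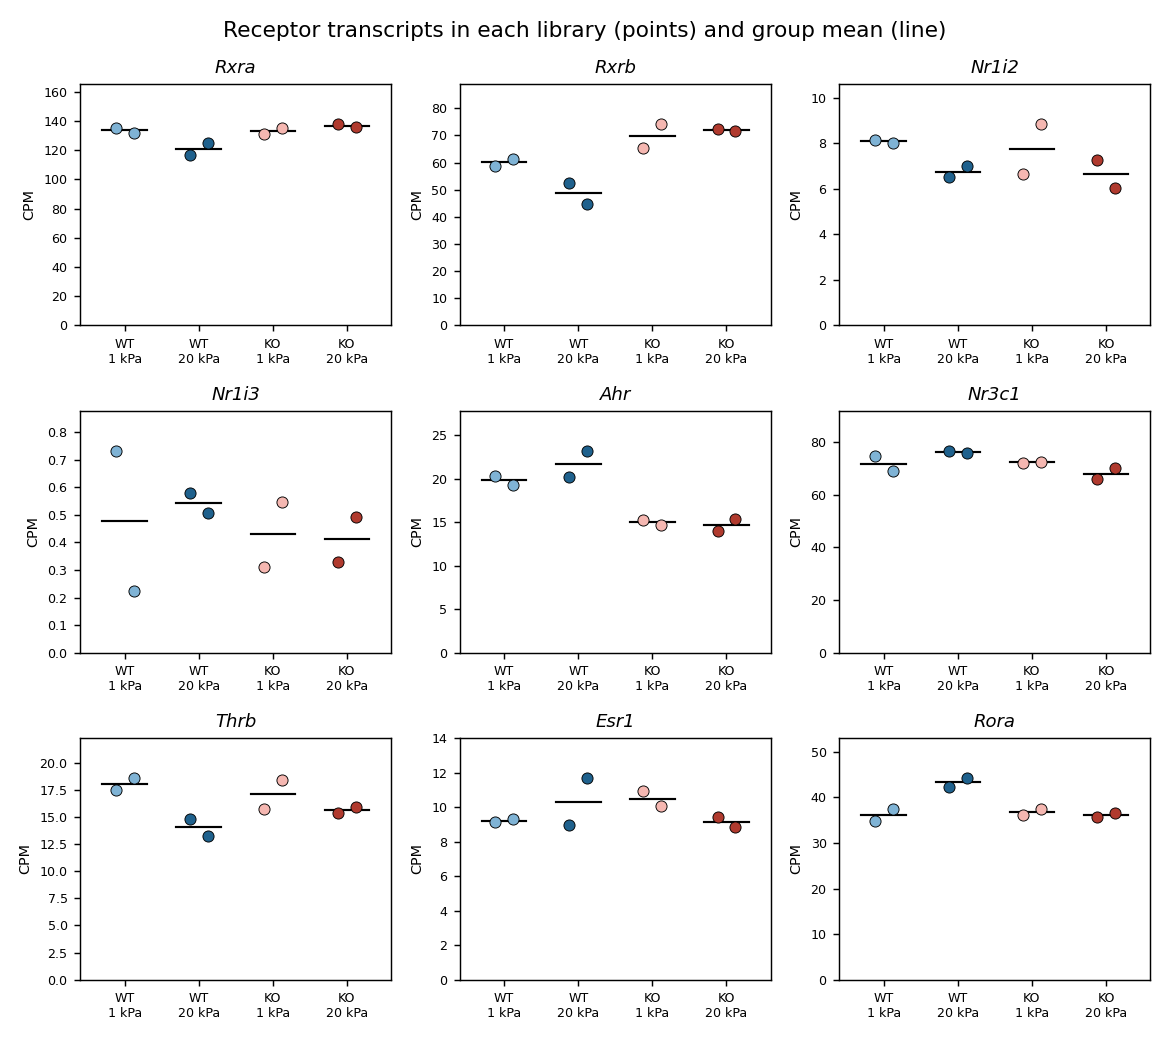
CPM (y axis, from 0) of each receptor in the 2 libraries (points) and the mean (line) of each genotype and stiffness group. Ahr is lower in all 4 KO than in all 4 WT libraries, Rxrb is higher, and no other receptor was called in any comparison.

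Among the hormone receptors, *Nr3c1* (ENSMUSG00000024431, chr18:39543598-39652474 as deposited, minus strand), which mediates cortisol and corticosterone signals, measured 74.8 and 69.0 CPM in WT soft, 76.7 and 76.1 in WT stiff, 72.1 and 72.6 in KO soft, and 65.9 and 70.2 in KO stiff. The 2 WT stiff libraries were the highest. Stiff against soft was 0.084 in WT (95% interval -0.038 to 0.20, adjusted p = 0.272) and -0.089 in KO (-0.21 to 0.033, adjusted p = 0.717). KO against WT on stiff was -0.17 (SE 0.058, adjusted p = 0.0225, and 0.154 without KO stiff replicate 1).

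*Thrb* (ENSMUSG00000021779, chr14:4431611-4809435 as deposited, minus strand), the main thyroid hormone receptor of hepatocytes, measured 17.4 and 18.6 CPM in WT soft, 14.8 and 13.3 in WT stiff, 15.7 and 18.4 in KO soft, and 15.4 and 15.9 in KO stiff. The 2 WT stiff libraries were the lowest of the 8. Stiff against soft was -0.36 in WT (SE 0.11, 95% interval -0.59 to -0.12, adjusted p = 0.0156, and 0.139 without WT stiff replicate 2). It was -0.12 in KO (SE 0.11, adjusted p = 0.816), and the difference of the effects, 0.23 (SE 0.16), did not pass (adjusted p = 0.29). GENCODE M21 places *Thrb* on the plus strand, unlike the deposited table, and the strand setting of the counting is not given in the sources used here.

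*Esr1* (ENSMUSG00000019768, chr10:4561593-4955614 as deposited, plus strand) measured 9.13 and 9.33 CPM in WT soft, 8.97 and 11.7 in WT stiff, 10.9 and 10.1 in KO soft, and 9.46 and 8.84 in KO stiff. The WT stiff pair enclosed every other value but 1, that of the lower KO stiff library. No comparison of *Esr1* passed the adjusted p, the nearest being the difference of the stiffness effects at -0.36 (SE 0.20, adjusted p = 0.197).

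*Rora* (ENSMUSG00000032238, chr9:68561068-69295528 as deposited, plus strand), a receptor tied to the circadian clock and lipid metabolism, measured 34.9 and 37.4 CPM in WT soft, 42.4 and 44.2 in WT stiff, 36.1 and 37.4 in KO soft, and 35.6 and 36.7 in KO stiff. The 2 WT stiff libraries lay above the other 6, which kept within 34.9 to 37.4. Stiff against soft was 0.26 in WT (SE 0.068, adjusted p = 0.00457, and 0.0596 without WT soft replicate 1) and -0.022 in KO (SE 0.069, adjusted p = 0.961). The difference of the effects was -0.29 (SE 0.097, adjusted p = 0.0335). Its adjusted p was 0.0547 to 0.119 without WT soft replicate 1, WT stiff replicate 2, either KO soft replicate or KO stiff replicate 1, at values of -0.32 to -0.25. KO against WT on stiff was -0.26 (SE 0.068, adjusted p = 0.00392), and on soft 0.025 (95% interval -0.12 to 0.17).

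Other receptors of the same subfamilies were compared in WT stiff against soft. *Nr3c2*, the mineralocorticoid receptor and nearest relative of GR, fell by 1.16 on the log2 scale (SE 0.10, adjusted p = 5.42e-08), beside 0.084 for *Nr3c1*. *Thra* gave 0.046 (SE 0.13, adjusted p = 0.803), beside -0.36 for *Thrb*. *Nr1h3* (LXRα), a partner of the RXRs, gave -0.42 (SE 0.066, adjusted p = 5.2e-05), under the fold threshold. *Nr0b2*, the corepressor SHP, had 3 to 11 counts and gave 0.27. *Rorb* and *Esr2* had a count of 0 in all 8 libraries. Of 29 other nuclear receptors, 23 were tested (*Vdr*, *Rarb*, *Rorb*, *Nr2f1*, *Pgr* and *Esr2* were not). In WT stiff against soft 0 of the 23 were called higher and 7 lower, among them *Hnf4a* at -0.98. Over all tested genes, 10.0% were called higher and 9.26% lower. In KO none of the 23 was called, beside 0.0210% of all tested genes. KO against WT on stiff called 8 higher and 3 lower, *Rxrg* at -0.71 and *Nr1h3* at 0.61 among them. The shares over all tested genes were 13.7% and 15.0%. The *Rxrg* call was lost without WT stiff replicate 1 (-0.57, adjusted p = 0.169) or KO stiff replicate 2 (-0.50, adjusted p = 0.185). The gaps between genes were not tested.

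Partners, chaperones and coregulators of the receptors were called in 2 of 22 tested genes in WT stiff against soft, 1 in each direction. The share over all tested genes was 19.3%. *Arnt*, the partner of AHR, fell by 0.56 (SE 0.055, adjusted p = 1.63e-07), with 2090 and 1506 counts in WT soft, 1142 and 1112 in WT stiff and 1762 to 2349 in KO libraries. *Stip1*, a cochaperone that hands receptors to HSP90, was 0.86 higher (SE 0.045). *Ahrr*, the AHR repressor, had 0 to 2 counts and was not tested.

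Genes that make, carry or break down receptor ligands were called in 9 of 18 tested, 2 higher and 7 lower on WT stiff. The share over all tested genes was 19.3%. *Aldh1a1*, a retinoic acid-forming dehydrogenase, was 1.58 higher, and *Dio3*, which inactivates thyroid hormone, 1.47 higher on 27 to 91 counts in WT. The *Dio3* call was lost without WT soft replicate 1 (1.24, adjusted p = 0.0770) or WT stiff replicate 1 (1.06, adjusted p = 0.170). *Sult1e1*, which sulfates estrogens, fell by 2.32, and *Serpina7*, the thyroxine-binding globulin, by 1.84. KO stiff against soft called none of the 18, beside 0.0210% of all tested genes. KO against WT on stiff called 7 higher and 6 lower, beside 13.7% and 15.0%. *Hsd11b2*, *Dio2*, *Cyp26a1*, *Cyp26b1*, *Aldh1a2* and *Crabp2* were not tested.

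Target genes were read as lists beside each receptor. Over all tested genes, 10.0% were called higher and 9.26% lower in WT stiff against soft. The 18 PXR and CAR targets held 2 called higher and 7 called lower in WT stiff against soft, with a median log2 fold change of -0.38 beside -0.0087 over all tested genes. *Gadd45b*, a stress gene that CAR also induces, was 1.92 higher and *Aldh1a7* 0.52 higher (0.45 without WT soft replicate 2 and 0.47 without WT stiff replicate 1, under the fold threshold), while *Abcc2*, a canalicular export pump, fell by 1.44 and *Cyp2b13* by 1.25. The standard readouts of PXR and CAR gave smaller values: *Cyp3a11* -0.15 (SE 0.037, adjusted p = 0.00246) and *Cyp2b10* -0.0021 (95% interval within ±0.5, adjusted p = 0.983). *Cyp2b13* shares 20.5% of its windows with other genes. On the same list *Gsta1* shares 87.8%, *Ugt1a1* 79.5% and *Gsta2* 54.2%, so their reads are uncertain.

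Of the AHR targets 7 were tested (*Ahrr* and *Aldh3a1* were not). In WT stiff against soft 5 were called lower, with a median of -1.36, beside 9.26% of all tested genes. *Cyp1a2* had 6445 and 4705 counts in WT soft, 2223 and 2044 in WT stiff, and 12423 to 15106 in KO libraries. *Cyp1a1*, the classical AHR readout, had 41 and 75 counts in WT soft, 13 and 23 in WT stiff and 109 to 156 in KO libraries. Both were lower in WT stiff than in any other group and highest in KO. The stiffness effects in WT were -1.55 (SE 0.29, adjusted p = 0.000257) for *Cyp1a1* and -1.27 (SE 0.046, adjusted p = 1.68e-13) for *Cyp1a2*. On stiff, KO against WT called 5 of the 7 targets higher and none lower, against 13.7% and 15.0% of all tested genes. *Cyp1a1* stood at 2.69 and *Cyp1a2* at 2.59, beside *Ahr* at -0.56. *Ugt1a6b*, at -1.36 in WT stiff against soft, shares 77.5% of its windows with related transcripts and is uncertain. *Ugt1a6a*, on 5 to 48 counts per library, shares 37.8% and is uncertain too. Both are among the 5 called higher in KO on stiff. *Tiparp* gave 0.19 (adjusted p = 0.0856) and *Cyp1b1* 1.72 (adjusted p = 0.154), and neither was called. On soft 3 of the 7 were called higher in KO, against 2.02% of all tested genes. These were *Cyp1a1* at 1.15, *Cyp1a2* at 1.25 and *Nqo1* at 0.58. On soft *Ugt1a6a* gave 0.14 (adjusted p = 0.859), *Ugt1a6b* 0.0064 (adjusted p = 0.987) and *Tiparp* -0.20 (adjusted p = 0.12). AHR activity itself was not measured.

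**Figure D4:**
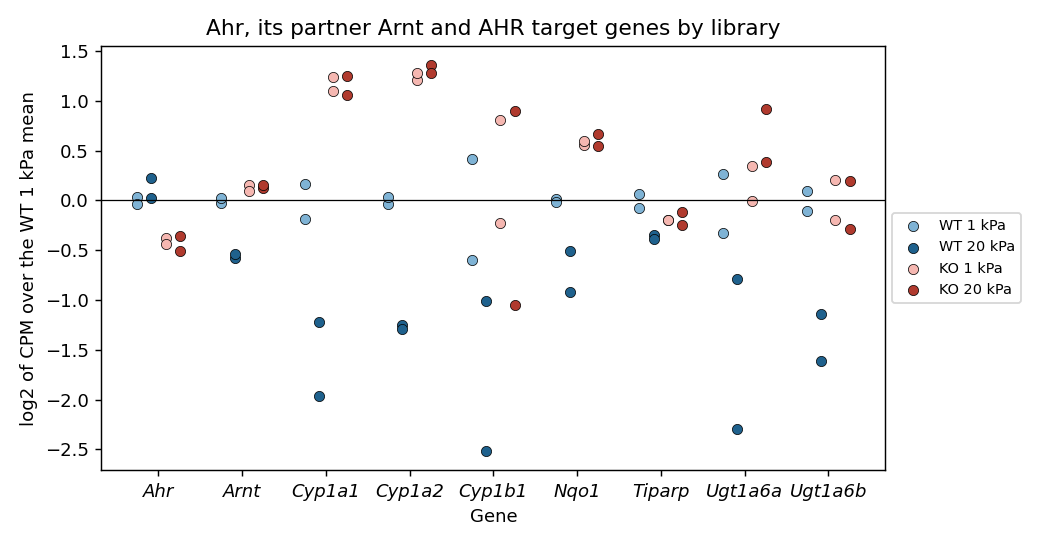
Log2 of the CPM of Ahr, Arnt and the 7 tested AHR target genes in each library over the WT 1 kPa mean. Ahr is lowest in the KO libraries, whereas Cyp1a1 and Cyp1a2 are highest there and lowest in WT 20 kPa; Cyp1b1 has 1 to 13 counts per library.

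Of 15 GR targets, 1 was called higher and 6 lower in WT stiff against soft, with a median of -0.38. Over all tested genes, 10.0% were called higher and 9.26% lower. *Sgk1*, a kinase induced by glucocorticoids, was 1.22 higher, while *Igfbp1* fell by 2.28 and *Tat*, the tyrosine aminotransferase, by 0.72. *Mt2* was called at -2.79 on 7 to 98 counts per library, but the 98 counts are those of WT soft replicate 2, without which it was -0.092 (adjusted p = 0.957). *Fkbp5*, a GR-induced cochaperone, gave 0.29 (SE 0.083, adjusted p = 0.00853). Of 6 thyroid hormone receptor targets, 0 were called higher and 3 lower, with *Dio1*, which activates thyroid hormone, at -1.08 (-0.67, adjusted p = 0.0775, without WT stiff replicate 1) and *Gpd2* at -0.78, while *Thrsp* gave -0.26 (SE 0.11, adjusted p = 0.0645). Both tested estrogen receptor targets were called lower, *Xbp1* at -0.94 and *Igfbp4* at -0.55 (-0.48 without WT soft replicate 2), and *Greb1*, *Pgr* and *Tff1* were not tested. Of 7 ROR targets, 3 were called lower and none higher, with *Fgf21* at -1.60 and *Cyp7b1* at -0.65. In KO stiff against soft none of the genes of these lists was called, against 0.0210% of all tested genes.

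**Figure D5:**
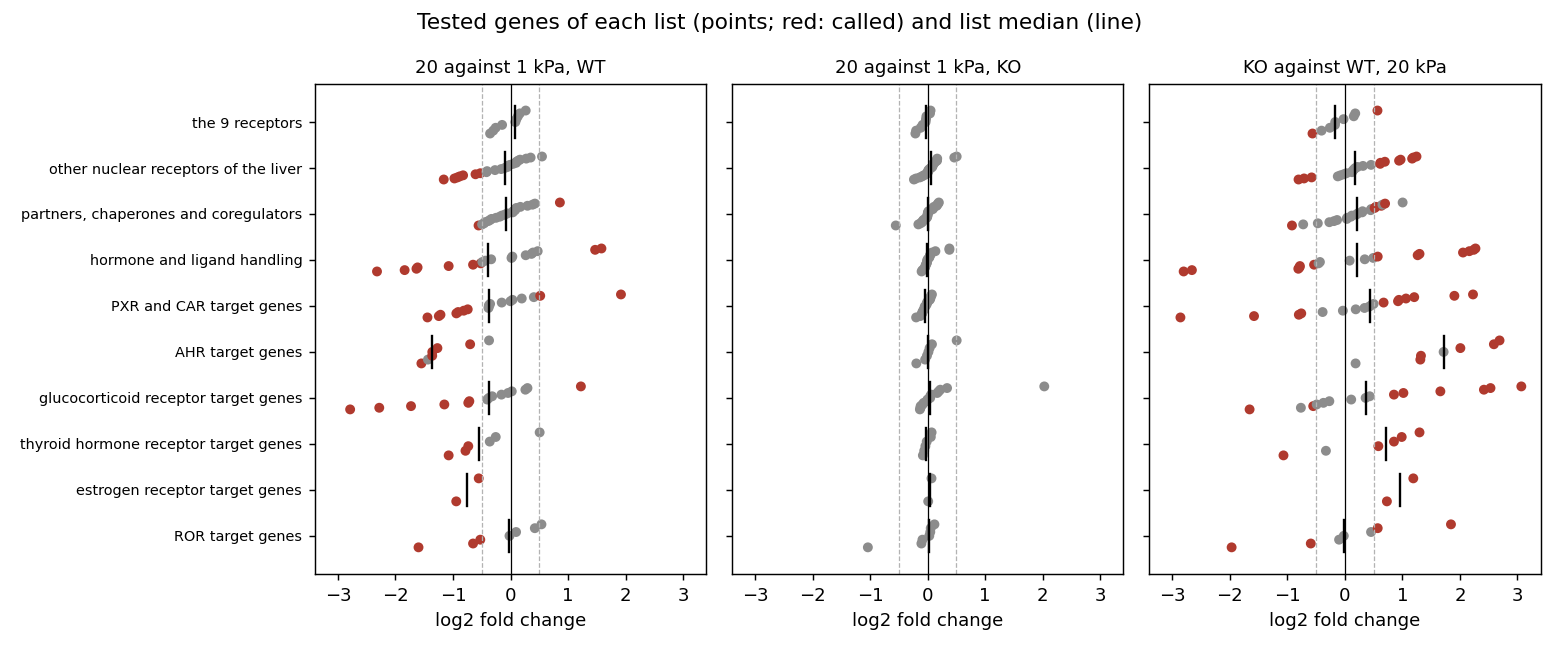
Log2 fold change (x axis) of the tested genes of each list, with the list median as a line and called genes in red, for stiffness in WT, stiffness in KO and genotype on stiff. No receptor of the top row is red in WT, no gene at all is red in KO, and only Rxrb and Ahr are red in the top row of the third panel.

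Markers of cell types moved with the same groups. Over all tested genes, 10.0% were called higher and 9.26% lower in WT stiff against soft. In WT stiff against soft, 4 of 8 endothelial markers, 4 of 8 Kupffer cell markers and 3 of 9 stellate cell markers were called lower, 1 stellate cell marker, *Col1a1* at 0.78, and 1 of 5 cholangiocyte markers, *Krt19* at 3.30, higher, and 3 of 9 hepatocyte markers lower (*Hnf4a*, *Asgr1* at -0.82 and *Tat*). Among those lower were *Clec4g* at -1.40 and *Stab2* at -0.72 (endothelial), *Timd4* at -3.33 on 0 to 21 counts and *Clec4f* at -1.48 (Kupffer), and *Pdgfrb* at -1.53 and *Col3a1* at -1.30 (stellate). Without WT soft replicate 1, *Timd4* was -2.04 (adjusted p = 0.358) and *Clec4f* -0.82 (adjusted p = 0.177), and without WT stiff replicate 2 they were -2.43 (adjusted p = 0.165) and -1.06 (adjusted p = 0.0761). The summed Kupffer cell markers were 79.1 and 82.2 CPM in WT soft, 56.1 and 61.2 in WT stiff and 112.2 to 116.7 in KO libraries, and the stellate cell markers 37.8 and 38.2, 26.5 and 27.5, and 53.7 to 58.1. The cholangiocyte markers summed to 571 to 626 CPM in WT and 341 to 367 in KO libraries, with *Cftr* at 0 in all 8. *Krt7*, *Cftr* and *Lrat* were not tested. In KO against WT on stiff, 7 of 8 endothelial, 6 of 8 Kupffer and 6 of 9 stellate cell markers were called higher. Called lower were 1 stellate cell marker, *Col1a1* at -0.62 (-0.44 without KO stiff replicate 2), and 2 of 5 cholangiocyte markers, with *Krt19* at -4.87. Over all tested genes, 13.7% were called higher and 15.0% lower in this comparison. The part of these markers in the *Rxrb* and *Ahr* differences and in the target lists was not tested.

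The genes whose log2 CPM ran most alike a receptor over the 8 libraries are named as a description, out of 10037 genes averaging 100 counts or more, and without a test, since the 8 libraries fall into 4 groups. For *Rxrb* these were *Mthfd1l* and *Hdac6* (Pearson r = 0.987 and 0.986), with 168 genes above 0.95. For *Ahr* they were *Hibadh* and *Ifih1* (0.983 both), with 141 above 0.95, for *Rora* *Polr3g* and *Prpf31* (0.991 and 0.987), with 79, and for *Rxra* *Rfxank* and *Gm33989* (0.983 both), with 39. *Nr3c1* ran with *Cip2a* and *Ndufa1* (0.978 and 0.968), and *Thrb* with *Enpp1* and *Dpp4* (0.976 and 0.966). For *Nr1i2* (*Slk* 0.941, *Cbll1* 0.915), *Nr1i3* (*Mup-ps19* 0.938, *Tec* 0.908) and *Esr1* (*Bcas2* 0.907, *Ndufaf2* 0.898) no gene reached 0.95. Between receptors, *Ahr* and *Rxrb* ran opposite (r = -0.934), as did *Rora* and *Rxra* (r = -0.848).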

How the data were processed

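RNA of mouse primary hepatocytes was sequenced as paired-end reads in 8 libraries. Per the labels and methods, reads were aligned by the authors (HISAT2 2.0.5) and assigned to genes by featureCounts. The values deposited are raw read counts, not normalized, with a gene length that was used for CPM per kb. The study's methods name dUTP in cDNA synthesis, which marks strand, whereas the labels' protocol allows for either a directional or a non-directional library. The strand and multi-mapping settings of the counting are not given in the sources used here. The submitters' processing notes name mm9, DESeq2 1.20.0, edgeR 3.22.5 and GATK 4.1.4.1. The deposited positions equaled GRCm38 (GENCODE M21) for 0 of the 9 receptors and 2.76% of 52073 genes, so the build was not settled and positions are printed as deposited.

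The tests ran in edgeR 4.0.16 and limma 3.58.1 under R 4.3.3: filterByExpr by group (14279 genes kept), TMM (factors 0.978 to 1.02), glmQLFit over all 8 libraries in 4 groups (4 residual degrees of freedom, common biological coefficient of variation 0.0542) and glmQLFTest. SE is the estimate divided by the root of F. Log2 CPM used a prior count of 2. Replicates of a group differed by more than sampling noise (chi-square per degree of freedom 2.62 to 5.45). DESeq2 1.42.0, other scalings, filters, thresholds and fits served as alternatives. The steps were tested on simulated data. Plots used Python 3.11.15 and matplotlib 3.10.9.

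The text names the 9 receptors, and of each list the untested genes, the 2 called genes with the largest rise and the 2 with the largest fall on stiff in WT, relatives of the receptors and standard readouts, of which 1 gene is not reported here. The receptors and the 14 lists were chosen with earlier results of these data known. Sequences are from RefSeq (GRCm38.p6), and the promoter table was matched by symbol.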

Additional observations from a re-analysis of the deposited data

Results flagged for a closer look

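The stiffness effect differed between the genotypes for 2 of the 9 receptors, beside 29.4% of all tested genes. This was read from the interaction term of edgeR's fit at an adjusted p under 0.05. *Rxrb* gave 0.35 (KO minus WT, log2, adjusted p = 0.0165): the stiffness effect was -0.30 in WT and 0.050 in KO. *Rora* gave -0.29 (adjusted p = 0.0335): the effect was 0.26 in WT and -0.022 in KO. Both values are under the 0.5 fold threshold. With 1 library left out at a time, which leaves 1 library in a group, *Rxrb* ran from 0.24 to 0.46 and *Rora* from -0.35 to -0.25. *Rxrb* missed the adjusted p without WT stiff replicate 2 (0.135) or KO soft replicate 1 (0.117). *Rora* missed it without WT soft replicate 1, WT stiff replicate 2, either KO soft replicate or KO stiff replicate 1 (0.0547 to 0.119).

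Of the 45 other genes named, 32 had such a difference, beside 29.4% of all tested genes. Many of them were named for the size of their change on stiff in WT, and the difference of effects uses the same WT libraries. Their count and signs are therefore no separate support for a difference. Among receptors and partners the values were 1.13 for *Nr3c2*, 0.98 for *Hnf4a*, 0.45 for *Nr1h3*, 0.57 for *Arnt* and -0.87 for *Stip1*. Among ligand-handling genes they were 2.70 for *Sult1e1*, 1.73 for *Serpina7*, 1.13 for *Dio1* and -1.63 for *Aldh1a1*. Among PXR and CAR targets they were 1.43 for *Abcc2*, 1.12 for *Cyp2b13*, -0.51 for *Aldh1a7* and -1.95 for *Gadd45b*, and among AHR targets 1.54 for *Cyp1a1*, 1.35 for *Cyp1a2* and 1.32 for *Ugt1a6b*. Among targets of the hormone receptors they were 4.81 for *Mt2* (with 98 counts in WT soft replicate 2, 78 in KO stiff replicate 1 and 7 to 16 elsewhere), 2.34 for *Igfbp1*, 1.65 for *Fgf21*, 0.95 for *Xbp1*, 0.74 for *Gpd2*, 0.62 for *Igfbp4*, 0.58 for *Tat*, -0.42 for *Fkbp5* and -1.18 for *Sgk1*. Among cell type markers they were 1.59 for *Col3a1*, 1.43 for *Clec4f*, 1.39 for *Pdgfrb*, 1.37 for *Clec4g*, 0.86 for *Stab2*, 0.84 for *Asgr1* and -3.12 for *Krt19*. Of these other genes, *Clec4f*, *Pdgfrb*, *Dio1*, *Mt2* and *Fkbp5* missed the adjusted p without 1 library. *Clec4f* was 0.76 (adjusted p = 0.302) without WT soft replicate 1 and 1.01 to 1.21 without WT stiff replicate 2, KO soft replicate 1 or KO stiff replicate 2. *Pdgfrb* was 1.14 to 1.39 (adjusted p 0.058 to 0.121) without WT soft replicate 1, WT stiff replicate 1, either KO soft replicate or KO stiff replicate 2. *Dio1* was 0.72 (adjusted p = 0.151) without WT stiff replicate 1, 0.86 (adjusted p = 0.106) without KO stiff replicate 1 and 1.04 (adjusted p = 0.063) without KO soft replicate 2. *Mt2* was 2.11 (adjusted p = 0.207) without WT soft replicate 2 and 2.98 (adjusted p = 0.138) without KO stiff replicate 1. *Fkbp5* was -0.37 (adjusted p = 0.0609) without KO soft replicate 1 and -0.31 (adjusted p = 0.0599) without KO stiff replicate 2. In 26 of all 34 cases the difference was positive, the sign that a fall on WT stiff gives where KO shows little change. Over all tested genes, 8.64% were called with a positive and 8.21% with a negative difference. With 2 libraries a group, no group was large enough to look for a single library that stands apart.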

How the results depend on the processing

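The number of receptors called stayed at 0 in the stiffness comparisons, the difference of effects and genotype on soft, and at 2 in genotype on stiff, under DESeq2, fits of only the 4 libraries compared (not made for the difference of effects, which needs all 8), upper quartile, RLE and library-size scaling, both filters, robust empirical Bayes and the replicate block. With no fold threshold it was 4 for stiffness in WT, 2 for the difference of effects, 2 for genotype on soft and 5 for genotype on stiff, and with a threshold of 1 it was 0 for genotype on stiff. Leaving out 1 library gave 0 to 2 for genotype on stiff (0 without WT stiff replicate 2, 1 without KO stiff replicate 1). In the replicate block, with the replicate number as a term, 2 receptors were called for genotype on stiff and 0 elsewhere. Deviations of same-numbered libraries had no common sign between groups (r over 10037 genes between -0.316 and 0.206). Each pair of groups has only 2 pairs, so this check cannot show whether libraries were paired. The numbers were not taken as pairs.

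Of 877 receptor estimates under alternatives, 832 kept their direction and side of the thresholds, 11 passed only once the fold threshold was dropped, 5 no longer passed (*Rxrb* and *Ahr* in genotype on stiff) and 29 changed sign, none of a called value. *Rxra* for genotype on soft was 0.0076 with upper quartile scaling, 0.048 with library size only and 0.0030 without the filter, and *Nr1i2* for genotype on stiff was 0.034 with library size only. *Cyp2b10* was 0.0057 with DESeq2, 0.0058 with RLE and 0.0067 without the filter for stiffness in WT, and 0.023 with library size only for genotype on stiff.
With 1 library left out at a time, these uncalled estimates changed sign. For stiffness in WT, *Nr1i3* ran from -0.42 to 1.28, *Esr1* from -0.038 to 0.35, *Nr0b2* from -0.57 to 1.64 and *Cyp2b10* from -0.063 to 0.063. For stiffness in KO, *Nr1i3* ran from -0.42 to 0.38, *Rxrb* from -0.047 to 0.14 and *Ahr* from -0.11 to 0.038. For the difference of effects, *Nr1i2* ran from -0.16 to 0.25, *Nr1i3* from -1.32 to 0.37, *Nr0b2* from -1.14 to 1.07, *Thrsp* from -0.0018 to 0.34 and *Dio3* from -1.995 to 0.71. For genotype on soft, *Nr1i2* ran from -0.28 to 0.13, *Nr1i3* from -0.79 to 0.91, *Rxra* from -0.033 to 0.016, *Nr3c1* from -0.049 to 0.071, *Thrb* from -0.19 to 0.033 and *Rora* from -0.025 to 0.075. For genotype on stiff, *Nr1i2* ran from -0.17 to 0.093, *Esr1* from -0.36 to 0.020, *Nr0b2* from -0.10 to 0.48 and *Cyp2b10* from -0.11 to 0.020.
The depth limits *Nr1i3* (4 to 19 counts) most, and groups of 2 libraries limit every estimate.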
